A study of Homo sapiens with 18 samples.

Results

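Cholesterol and fatty acid synthesis was examined through 33 genes of the 58815 in the count table, taken by gene symbol from a list of enzymes and regulators. The list sets no condition on a measured value, but it was drawn up with earlier results of these data known. All 33 were found, and all 33 were among the 12287 genes expressed highly enough to be tested. They comprised 8 genes that make or use the precursors of the mevalonate pathway (AACS, ACAT2, HMGCS1, MVK, PMVK, MVD, IDI1 and FDPS) and 11 that build squalene and convert it to cholesterol (FDFT1, SQLE, LSS, CYP51A1, TM7SF2, MSMO1, NSDHL, HSD17B7, EBP, SC5D and DHCR7). A further 5 sense or move sterol (INSIG1, SREBF1, SREBF2, SCAP and STARD4), and 9 make, lengthen or desaturate fatty acids or pass them into glycerolipids (ACLY, ACSS2, ACACA, FASN, ELOVL6, SCD, FADS1, FADS2 and LPIN1).

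RNA-seq was performed on 18 libraries, 3 for each of 6 groups, from cells depleted of WDR5, a scaffold subunit of complexes that methylate histone H3. The cells were metastatic derivatives of MDA-MB-231, a human breast cancer cell line: LM2 from lung, BoM from bone and a brain derivative named BrM3 here after the study, which the labels call BrM or MDA-MB-231 BrM2. Groups follow the sample titles, since another label names a different metastatic site for most libraries. Each derivative carried a doxycycline-inducible lentiviral hairpin, either a control (shCtrl) or 1 hairpin against WDR5 (shWDR5), and both the control and the knockdown cells received doxycycline at 1 µg/mL for 3 days. The 3 derivatives share a parental line, 1 WDR5 hairpin was sequenced, and whether each derivative is a clone is not given in the sources used here. Replicates were harvested at different passages, so p-values measure the spread between cultures of 1 line.

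In human cells, acetyl-CoA is condensed to mevalonate, then to squalene, which is oxidised, cyclised and trimmed to cholesterol, and the same acetyl-CoA feeds ACACA and FASN to make saturated fatty acids. When membrane sterol is low, SCAP carries the precursors of the transcription factors SREBP1 and SREBP2 (encoded by SREBF1 and SREBF2) to the Golgi, where they are cleaved, and the released factors bind sterol regulatory elements in the promoters of most genes of both pathways. INSIG1 holds SCAP back when sterol is plentiful, and serum in the medium supplies sterol and fatty acids to cultured cells.

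Libraries held 17485841 to 119667013 counts, with a median of 37861544. Levels are given as CPM, the count of a gene relative to the whole library, scaled by TMM factors. WDR5 itself fell in LM2, BrM3 and BoM, with log2 fold changes of -2.43, -1.97 and -2.23 (adjusted p = 1.76e-08, 4.24e-07 and 6.16e-08). Genes listed as markers of this cancer line (VIM, CD44 and keratins) summed to 2900 to 3610 CPM per library, against at most 4.71 for immune, 5.32 for endothelial, 10.5 for fibroblast and 0.405 for adipocyte markers, with LEP at 0 counts in all 18 libraries. VIM alone held 1490 to 2220 CPM, while KRT7 and KRT19 were as low as 6.94 and 24.2 CPM, so the sum is not a measure of epithelial identity. The fibroblast sum was mostly PDGFRB and was lower in shWDR5 than in shCtrl cells of each line (2.65 to 3.19 against 3.76 to 5.33 CPM in LM2, 0.796 to 1.36 against 2.11 to 2.37 in BrM3, 4.40 to 5.44 against 7.97 to 10.5 in BoM), and its part in the results was not tested.

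Per kilobase of exon, the 33 genes spanned a wide range in the 9 shCtrl libraries. ACLY, which makes cytosolic acetyl-CoA from citrate, stood highest at 77.4 ± 8.10 CPM per kb (SD, n = 9), at the 96.4 percentile of all tested genes. SCD, the desaturase that makes oleate from stearate, followed at 72.4 ± 34.3, and ACAT2, which starts the mevalonate branch, at 48.5 ± 6.75. The spread of SCD takes in differences between lines, and its order with ACLY varied by line. SCD stood at 32.8 ± 2.09 against 70.5 ± 5.3 for ACLY in BrM3 (SD, n = 3). In BoM it was 103 ± 23 against 78.7 ± 6.23, and in LM2 81.3 ± 17.3 against 83.1 ± 8.48. The range of SCD, from 30.6 to 127 CPM per kb, was the widest of the 33 in these units. CYP51A1, the lanosterol demethylase, stood lowest at 0.313 ± 0.188 CPM per kb, behind TM7SF2 at 1.29 ± 0.371 and AACS at 2.04 ± 0.703. Exon length here pools all annotated exons of a gene. That of AACS, 16039 bases, was the longest of the 33, so its low place depends on this choice. Of the exonic bases of CYP51A1, 68.19% lie within another annotated gene on the same strand, so its counts, 10 to 378 per library, are uncertain. EBP shares 36.43% in the same way and HMGCS1 37.68% with a gene on the opposite strand. The genes overlapping CYP51A1, EBP and HMGCS1 held at most 3 counts in any library. This does not show how reads in the shared bases were counted, so the levels of EBP and HMGCS1 per kilobase are uncertain as well. FADS1 and FADS2 overlap on opposite strands for under 5% of their exonic bases.

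The first question was whether lipid synthesis genes changed when WDR5 was depleted. Averaged over the 3 lines with equal weight, 7 of the 33 genes fell and 0 rose at an adjusted p under 0.05 (edgeR's quasi-likelihood test, Benjamini-Hochberg over 12287 genes). Those that fell were SCD, FADS1 and FADS2, which put double bonds into fatty acids, HSD17B7 and EBP, which act late in cholesterol synthesis, AACS, which turns acetoacetate into a precursor of both pathways, and SREBF2. The share that fell, 21.2%, was near the 19.9% of all tested genes that fell, while 15.7% of all tested genes rose. The median log2 fold change of the 33 genes was -0.16, against 0.00 for all tested genes, and 26 of the 33 estimates were negative. At an unadjusted p under 0.05 there were 12 genes, of which ACACA was higher, and DESeq2 called 8 lower and 2 higher. Of the 12287 tested genes DESeq2 called 4871, 49.9% of them higher. With replicate number as a block, 13 fell and 1 rose, where 24.7% of all tested genes fell and 22.3% rose. Those added were HMGCS1, MVK, SC5D, DHCR7, INSIG1 and SREBF1, which fell, and ACACA, which rose. The table held no rows for the spike-in RNA that the labels name, so all values are relative within a library, and fewer cells with high expression cannot be told apart from less RNA in every cell.

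**Figure D1:**
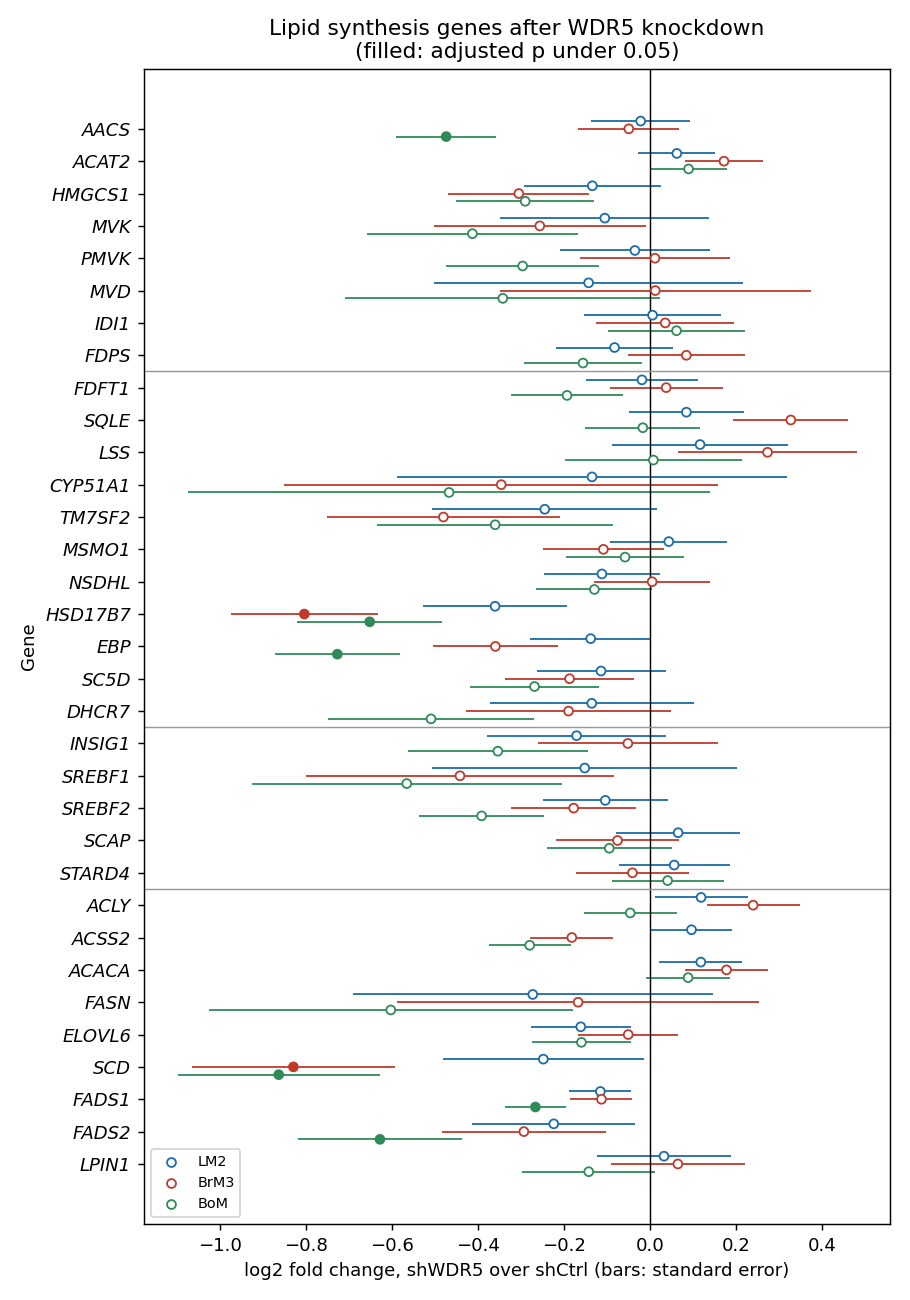
The log2 fold change of shWDR5 over shCtrl cells is plotted for each of the 33 genes (vertical axis, grouped by role from the mevalonate pathway at the top to fatty acid synthesis at the bottom) in LM2, BrM3 and BoM, with bars for the standard error and filled points where the adjusted p was under 0.05. Filled points were absent in LM2, 2 in BrM3 and 6 in BoM, all to the left of 0.

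By line, 0 of the 33 genes changed in LM2 by edgeR (1 at an unadjusted p under 0.05, 0 by DESeq2), where 4.84% of all tested genes fell and 1.5% rose. In BrM3, 2 genes fell (6.06%, against 8.02% of all tested genes) and in BoM 6 fell (18.2%, against 10.8%), with 0 higher in either line, where 2.94% and 5.41% of all tested genes rose. DESeq2 called 2 lower and 7 lower in these lines, with 0 higher. Of all tested genes it called 1158 in LM2, 1793 in BrM3 and 2501 in BoM, with 35.8%, 36.1% and 43.5% of these higher. Median log2 fold changes over the 33 were -0.11 (LM2), -0.08 (BrM3) and -0.28 (BoM), with all tested genes at 0.00, -0.01 and 0.02. When the relation to GC content was removed, the medians of the 33 were nearer to 0, at -0.05, -0.02 and -0.17. The median in LM2 turned to 0.09 without LM2 shCtrl replicate 3 and to 0.05 without LM2 shWDR5 replicate 1 and was 0.00 without LM2 shWDR5 replicate 2, so its direction rests on single libraries, and that in BoM was -0.18 without BoM shCtrl replicate 2. Neither the 2 calls in BrM3 nor the 6 in BoM were evenly firm. Leaving out any 1 of the 6 BrM3 libraries left 1 call there, and in BoM 2 calls were left without shCtrl replicate 2 and 3 without shWDR5 replicate 2. Deviations of BoM libraries correlated by 0.553, 0.32 and 0.16 between the same replicate numbers. However, shWDR5 replicate 3 correlated better with shCtrl replicate 2 (0.198). Median deviations of the 33 genes had opposite signs in shCtrl and shWDR5 replicate 2 (0.14 and -0.06) and replicate 3 (-0.03 and 0.11), so pairing in BoM is uncertain. With replicate number as a block, 12 of the 33 genes fell in BoM and 0 rose, where 15.1% of all tested genes fell and 11.4% rose. The 12 were the 6 genes together with MVK, DHCR7, INSIG1, SREBF1, SREBF2 and ACSS2 (adjusted p = 0.0403, 0.00512, 0.0372, 0.044, 0.00716 and 0.0334).

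SCD (ENSG00000099194, chromosome 10, 100347233 to 100364826 on GRCh38 in GENCODE release 44), the stearoyl-CoA desaturase, had the most negative averaged estimate of the 33 genes. In LM2 it stood at 326, 450.1 and 502.5 CPM in shCtrl cells and 225, 326 and 528 CPM in shWDR5 cells. In BrM3 it stood at 174, 182 and 160.3 CPM in shCtrl cells and 88.1, 109 and 93.4 CPM in shWDR5 cells. In BoM it stood at 428, 668 and 526 CPM in shCtrl cells and 298, 261 and 334 CPM in shWDR5 cells. The groups did not overlap in BrM3 or BoM, whereas in LM2 the shWDR5 library of replicate 3 was higher than all 3 shCtrl libraries. SCD fell in BrM3 (log2 fold change -0.83, standard error 0.24, adjusted p = 0.0317) and in BoM (log2 fold change -0.86, standard error 0.24, adjusted p = 0.0187), and its estimate in LM2 was -0.25 (adjusted p = 0.633). Averaged over the lines it fell by 0.65 on the log2 scale (standard error 0.14, adjusted p = 0.00137). The averaged call held when any 1 of the 18 libraries was left out, but the call in BrM3 was lost without any 1 of the 6 BrM3 libraries and that in BoM without shCtrl replicate 2 or shWDR5 replicate 2 (adjusted p up to 0.100 and 0.101).

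HSD17B7 (ENSG00000132196, chromosome 1, 162790702 to 162812823) encodes the 3-ketosteroid reductase of cholesterol synthesis. In LM2 its level was 11.1, 11.5 and 14.2 CPM in shCtrl cells and 8.44, 9.10 and 11.4 CPM in shWDR5 cells. In BrM3 its level was 11.8, 12.4 and 12.6 CPM in shCtrl cells and 6.94, 7.12 and 6.98 CPM in shWDR5 cells. In BoM its level was 11.4, 15.6 and 15.1 CPM in shCtrl cells and 7.27, 7.99 and 11.6 CPM in shWDR5 cells. The BrM3 groups were far apart relative to their spread (12.3 ± 0.432 against 7.01 ± 0.0948 CPM, SD, n = 3), while in LM2 and BoM the highest shWDR5 library reached into the shCtrl range. HSD17B7 fell in BrM3 (log2 fold change -0.80, standard error 0.17, adjusted p = 0.00568) and BoM (log2 fold change -0.65, standard error 0.17, adjusted p = 0.0145), and the LM2 estimate of -0.36 (adjusted p = 0.236) was the only one of the 33 in that line with an unadjusted p under 0.05. Averaged, it had the smallest adjusted p of the 33 genes (log2 fold change -0.60, standard error 0.10, adjusted p = 1.44e-04). The call in BoM was lost without BoM shCtrl replicate 2, shWDR5 replicate 1 or shWDR5 replicate 2 (adjusted p = 0.0727, 0.0599 and 0.0622) and with BoM fitted alone (0.0719).

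EBP (ENSG00000147155, chromosome X, 48521799 to 48528716), the sterol isomerase that shifts a ring double bond before the last steps to cholesterol, stood at 31.7, 36.99 and 33.5 CPM in shCtrl cells and 33.9, 31.1 and 27.9 CPM in shWDR5 cells in LM2. In BrM3 the values were 12.2, 15.5 and 10.9 CPM in shCtrl cells and 8.02, 10.7 and 11.01 CPM in shWDR5 cells. In BoM the values were 16.9, 19.5 and 16.8 CPM in shCtrl cells and 9.96, 10.1 and 12.2 CPM in shWDR5 cells. All 3 shWDR5 libraries lay below all 3 shCtrl libraries in BoM, and the ranges overlapped in LM2 and BrM3. EBP fell in BoM (log2 fold change -0.73, standard error 0.15, adjusted p = 0.00271), with estimates of -0.14 (adjusted p = 0.665) in LM2 and -0.36 (adjusted p = 0.13) in BrM3. Its averaged fall was 0.41 on the log2 scale (standard error 0.08, adjusted p = 0.00108), and both calls held with any 1 library left out.

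FADS1 (ENSG00000149485, chromosome 11, 61799627 to 61829318), the delta-5 fatty acid desaturase, was the only one of the 33 whose shWDR5 libraries lay below all shCtrl libraries in every line, which 7.13% of all tested genes did. It stood at 337, 321 and 328 CPM in shCtrl cells and 293.5, 299.7 and 317 CPM in shWDR5 cells in LM2. It stood at 195.5, 195 and 194 CPM in shCtrl cells and 170.3, 189 and 181 CPM in shWDR5 cells in BrM3. It stood at 361, 344 and 343 CPM in shCtrl cells and 311, 291 and 269.6 CPM in shWDR5 cells in BoM. The differences were small: it fell in BoM (log2 fold change -0.27, standard error 0.07, adjusted p = 0.0181) and on average (log2 fold change -0.16, standard error 0.04, adjusted p = 0.00529), and the estimates in LM2 and BrM3 were -0.12 (adjusted p = 0.407) and -0.11 (adjusted p = 0.365). The BoM call was lost without BoM shCtrl replicate 1 or shWDR5 replicate 3 (adjusted p = 0.0711 and 0.0652), with BoM fitted alone (0.174), with all LM2 libraries left out (0.0536) and with no filter on low counts (0.275), and the averaged call was lost with no filter as well (0.194).

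FADS2 (ENSG00000134824, chromosome 11, 61792980 to 61867354), the delta-6 desaturase and neighbour of FADS1, spread more between replicates. In LM2 its values were 228, 309 and 354 CPM in shCtrl cells and 199, 230.0 and 335.5 CPM in shWDR5 cells, with the ranges overlapping. In BrM3 its values were 190.4, 207 and 185 CPM in shCtrl cells and 125, 176 and 174 CPM in shWDR5 cells. In BoM its values were 242.5, 347 and 271 CPM in shCtrl cells and 189.5, 189 and 179 CPM in shWDR5 cells. In BrM3 and BoM every shWDR5 library was below every shCtrl library. FADS2 fell in BoM (log2 fold change -0.63, standard error 0.19, adjusted p = 0.0329) and on average (log2 fold change -0.38, standard error 0.11, adjusted p = 0.0121). The BoM call was lost in 5 of the fits without 1 BoM library, shCtrl replicate 1 being the exception (adjusted p up to 0.169).

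AACS (ENSG00000081760, chromosome 12, 125065434 to 125143333), acetoacetyl-CoA synthetase, stood at 39.4, 51.5 and 47.5 CPM in shCtrl cells and 48.4, 45.1 and 42.9 CPM in shWDR5 cells in LM2. In BrM3 it stood at 21.7, 22.7 and 20.2 CPM in shCtrl cells and 17.9, 21.2 and 23.1 CPM in shWDR5 cells, and both pairs of ranges overlapped. In BoM it stood at 30.5, 32.4 and 28.4 CPM in shCtrl cells and 23.3, 22.9 and 19.5 CPM in shWDR5 cells, where the ranges were apart. AACS fell in BoM (log2 fold change -0.47, standard error 0.12, adjusted p = 0.0109), and its averaged fall was small (log2 fold change -0.18, standard error 0.07, adjusted p = 0.0441) and was lost in 11 of the 18 fits without 1 library, spread over all 3 lines (adjusted p = 0.0613 to 0.0988). Without BoM shCtrl replicate 2 its call in BoM was lost (adjusted p = 0.0514), as it was with BoM fitted alone (0.0529).

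SREBF2 (ENSG00000198911, chromosome 22, 41833105 to 41907306), which encodes SREBP2, the main activator of cholesterol synthesis genes, was measured at 117.5, 155 and 164 CPM in shCtrl cells and 116, 125 and 167 CPM in shWDR5 cells in LM2. The BrM3 values were 94.98, 115 and 102 CPM in shCtrl cells and 78.2, 99.1 and 98 CPM in shWDR5 cells. The BoM values were 105, 125 and 103 CPM in shCtrl cells and 87.5, 83.3 and 83.4 CPM in shWDR5 cells. The ranges were apart in BoM but not in LM2 or BrM3, and SREBF2 did not pass the test in any line alone, with estimates of -0.10 (adjusted p = 0.775) in LM2, -0.18 (adjusted p = 0.496) in BrM3 and -0.39 (adjusted p = 0.0795) in BoM. The averaged fall (log2 fold change -0.22, standard error 0.08, adjusted p = 0.0467) was lost in 12 of the 18 fits without 1 library (adjusted p = 0.0531 to 0.0999) and shrank to -0.10 when the relation to GC content was removed (adjusted p = 0.0729).

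**Figure D2:**
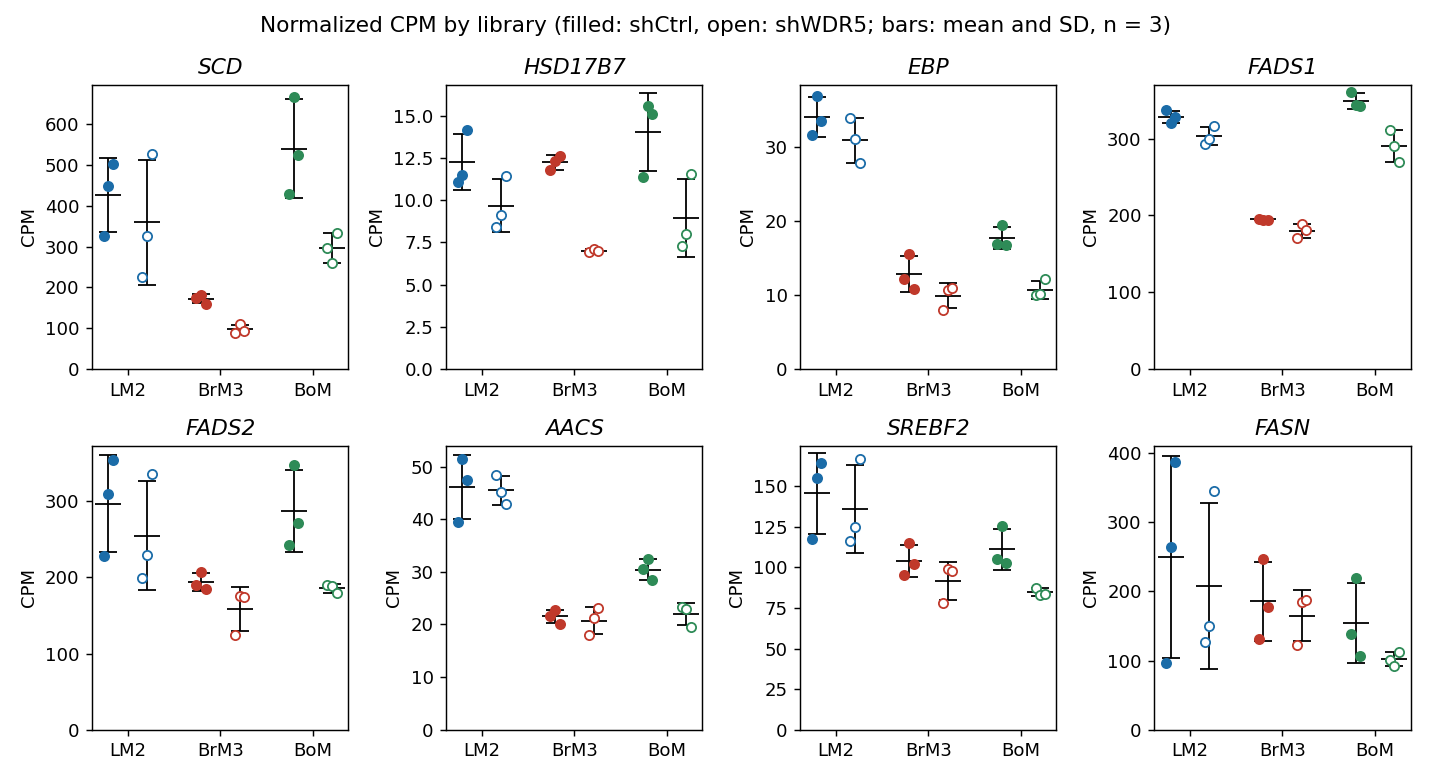
Normalized CPM in each library is plotted for SCD, HSD17B7, EBP, FADS1, FADS2, AACS, SREBF2 and FASN, with filled circles for shCtrl, open circles for shWDR5, and the mean and SD of 3 replicates per group. The shWDR5 points of SCD, EBP, FADS1 and FADS2 in BoM lie below all shCtrl points, while the FASN points in LM2 spread from 96.1 to 387 CPM within shCtrl cells.

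The other regulators did not pass the test without the replicate block. SREBF1, which encodes SREBP1, the activator of fatty acid genes, was measured at 46.5, 90.5 and 114.5 CPM in shCtrl cells and 47.4, 59.8 and 121 CPM in shWDR5 cells in LM2. In BrM3 cells the values were 39.3, 67.6 and 50.1 CPM in shCtrl cells and 27.7, 46.2 and 41.2 CPM in shWDR5 cells. In BoM cells the values were 43.2, 67.9 and 37.6 CPM in shCtrl cells and 27.1, 30.5 and 43.4 CPM in shWDR5 cells. The SREBF1 ranges overlapped in every line, and its averaged estimate was -0.39 (95% confidence interval -0.82 to 0.05, adjusted p = 0.156). SCAP, the escort of both SREBPs, stood at 60.6, 83.4 and 83.6 CPM in shCtrl cells and 75.96, 77.1 and 85.7 CPM in shWDR5 cells in LM2. It stood at 72.1, 82.6 and 73.8 CPM in shCtrl cells and 55.7, 81.5 and 79.3 CPM in shWDR5 cells in BrM3. It stood at 63.7, 67.1 and 59.4 CPM in shCtrl cells and 66, 61.1 and 51.2 CPM in shWDR5 cells in BoM. The averaged SCAP estimate was -0.03 (95% confidence interval -0.21 to 0.14, adjusted p = 0.778). INSIG1, the sterol-sensing retention factor, stood at 132.5, 128.5 and 182 CPM in shCtrl cells and 102, 120.1 and 172.5 CPM in shWDR5 cells in LM2. It stood at 60.04, 85.5 and 76 CPM in shCtrl cells and 64.2, 79.5 and 69.99 CPM in shWDR5 cells in BrM3. It stood at 99.9, 126 and 115 CPM in shCtrl cells and 79.7, 69.6 and 117 CPM in shWDR5 cells in BoM. The INSIG1 groups overlapped in every line and the averaged estimate was -0.19 (95% confidence interval -0.45 to 0.06, adjusted p = 0.23). STARD4, a sterol carrier, had an averaged estimate of 0.02 (adjusted p = 0.867).

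In the upper part of the pathway, HMGCS1, which makes HMG-CoA, had values of 45.2, 44.7 and 54.1 CPM in shCtrl cells and 35.3, 41.9 and 54.6 CPM in shWDR5 cells in LM2. In BrM3 they were 23.6, 26.6 and 23.97 CPM in shCtrl cells and 24.2, 18.5 and 17.7 CPM in shWDR5 cells. In BoM they were 49.6, 55.4 and 56.7 CPM in shCtrl cells and 40.8, 37.6 and 53.8 CPM in shWDR5 cells. The ranges overlapped in each line, and the averaged estimate, -0.24 (95% confidence interval -0.44 to -0.05, adjusted p = 0.0522), lay just outside the threshold. The other mevalonate genes had averaged estimates between -0.26 (adjusted p = 0.167) for MVK and 0.11 (adjusted p = 0.113) for ACAT2. SQLE, the squalene oxidase, was the sterol gene with the most positive estimate in a single line. Its values were 16.7, 16.9 and 21.2 CPM in shCtrl cells and 16.9, 18.2 and 23.7 CPM in shWDR5 cells in LM2. They were 22.4, 21.9 and 23.02 CPM in shCtrl cells and 32.1, 26.5 and 26.03 CPM in shWDR5 cells in BrM3, where the ranges did not overlap. They were 22.5, 23.02 and 28.2 CPM in shCtrl cells and 24.3, 24.02 and 24.5 CPM in shWDR5 cells in BoM. SQLE had estimates of 0.33 (adjusted p = 0.132) in BrM3 and 0.13 (95% confidence interval -0.03 to 0.30, adjusted p = 0.196) on average. The remaining sterol genes ranged from -0.36 (adjusted p = 0.0791) for TM7SF2, a sterol reductase, to 0.13 (adjusted p = 0.404) for LSS, which closes the sterol rings.

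In fatty acid synthesis, FASN, the fatty acid synthase, varied more between replicates than between groups. It stood at 96.1, 264.5 and 387 CPM in shCtrl cells and 127, 149 and 345 CPM in shWDR5 cells in LM2. It stood at 132, 247 and 178 CPM in shCtrl cells and 122, 185 and 187 CPM in shWDR5 cells in BrM3. It stood at 138.5, 219 and 106 CPM in shCtrl cells and 101, 92.1 and 113 CPM in shWDR5 cells in BoM. The wide interval of its averaged estimate, -0.35 (95% confidence interval -0.86 to 0.17, adjusted p = 0.283), is that of a gene whose LM2 shCtrl libraries alone differed from 96.1 to 387 CPM. ACACA and ACLY, which supply FASN with malonyl-CoA and acetyl-CoA, had positive averaged estimates of 0.13 (adjusted p = 0.0836) and 0.10 (adjusted p = 0.205). ACSS2, the acetate-using acetyl-CoA synthetase, and ELOVL6, an elongase, had -0.12 (adjusted p = 0.0973) and -0.12 (adjusted p = 0.164).

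Taking every gene of the 33, shWDR5 and shCtrl ranges did not overlap, with shWDR5 lower, for 2 genes (LM2), 5 (BrM3) and 9 (BoM), which 14.6%, 19.7% and 17.3% of all tested genes did. With shWDR5 higher there were 1 in LM2 (ACACA), 4 in BrM3 (ACAT2, SQLE, ACACA and LPIN1) and 0 in BoM, against 10.7%, 16% and 12.9% of all tested genes.

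The next question was whether the response to WDR5 depletion differed between derivatives, tested as the difference of 2 log2 fold changes. None of the 33 genes passed this test for any pair of lines by edgeR or DESeq2, and at an unadjusted p under 0.05 there were 0 for BrM3 against LM2, 3 for BoM against LM2 and 1 for BoM against BrM3. Of all tested genes 0.00814%, 0% and 0.00814% passed by edgeR, and 18, 41 and 4 genes by DESeq2. The smallest adjusted p for BoM against LM2 was that of EBP, with a difference of -0.59 (95% confidence interval -1.01 to -0.16, adjusted p = 0.575), followed by ACSS2 at -0.38 (95% confidence interval -0.66 to -0.09, adjusted p = 0.643) and AACS at -0.45 (95% confidence interval -0.80 to -0.11, adjusted p = 0.645). Next came SCD at -0.62 (95% confidence interval -1.31 to 0.08, adjusted p = 0.999) and FADS2 at -0.40 (95% confidence interval -0.97 to 0.16, adjusted p = 0.999). For BoM against BrM3 the lowest unadjusted p was that of AACS, with a difference of -0.42 (95% confidence interval -0.77 to -0.08, adjusted p = 1). For BrM3 against LM2 it was that of ACSS2, at -0.28 (95% confidence interval -0.56 to 0.01, adjusted p = 1). The intervals are wide: for SCD, that for BoM against LM2 takes in 0 as well as a difference larger than the averaged fall of the gene.

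Of the 7 genes that fell on average, the 4 with a CCAAT box in the first listed window are shown with their upstream sequence, chosen for those letters, as is MSMO1, which differed between lines in shCtrl cells. RefSeq promoter windows (GRCh38.p14, 250 bases before to 50 after an annotated start) are given 5′ to 3′. Capitals mark each CCAAT box, which binds NF-Y and reads ATTGG from the other strand, and the site TCACNCCAC, which SREBPs bind with NF-Y.
SCD, chr10:100346983-100347282, plus strand: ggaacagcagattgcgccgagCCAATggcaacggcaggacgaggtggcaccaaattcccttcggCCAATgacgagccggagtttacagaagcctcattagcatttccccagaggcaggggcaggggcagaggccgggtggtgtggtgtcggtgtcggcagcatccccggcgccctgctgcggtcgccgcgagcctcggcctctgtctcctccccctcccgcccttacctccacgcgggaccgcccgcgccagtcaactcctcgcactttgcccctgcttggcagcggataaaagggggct
HSD17B7, chr1:162790452-162790751, plus strand: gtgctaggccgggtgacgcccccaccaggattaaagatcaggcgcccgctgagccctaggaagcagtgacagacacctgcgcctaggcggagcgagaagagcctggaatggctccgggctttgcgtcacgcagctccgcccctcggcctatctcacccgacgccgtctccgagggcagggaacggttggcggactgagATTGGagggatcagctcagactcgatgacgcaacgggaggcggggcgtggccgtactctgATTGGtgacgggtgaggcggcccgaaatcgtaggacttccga
EBP, chrX:48521558-48521857, plus strand: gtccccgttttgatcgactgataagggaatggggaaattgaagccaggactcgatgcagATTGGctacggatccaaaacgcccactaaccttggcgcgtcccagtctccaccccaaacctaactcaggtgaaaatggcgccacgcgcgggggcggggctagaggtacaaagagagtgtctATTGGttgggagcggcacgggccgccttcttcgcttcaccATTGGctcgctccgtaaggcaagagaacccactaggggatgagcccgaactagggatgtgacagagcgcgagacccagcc
SREBF2, chr22:41832855-41833154, plus strand: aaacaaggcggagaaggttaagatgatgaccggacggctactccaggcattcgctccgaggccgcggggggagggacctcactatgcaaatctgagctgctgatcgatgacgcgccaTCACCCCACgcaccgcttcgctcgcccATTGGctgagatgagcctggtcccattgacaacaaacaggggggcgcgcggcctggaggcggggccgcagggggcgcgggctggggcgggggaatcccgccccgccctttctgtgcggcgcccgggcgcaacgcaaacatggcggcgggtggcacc
MSMO1, chr4:165327419-165327718, plus strand: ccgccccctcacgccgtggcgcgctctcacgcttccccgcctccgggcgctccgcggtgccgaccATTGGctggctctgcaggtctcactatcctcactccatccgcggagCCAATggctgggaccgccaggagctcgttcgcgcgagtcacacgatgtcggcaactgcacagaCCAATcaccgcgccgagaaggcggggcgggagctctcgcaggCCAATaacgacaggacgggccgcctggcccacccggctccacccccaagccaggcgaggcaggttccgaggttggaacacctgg
CCAAT was found 2 times in the window of SCD, 2 in HSD17B7, 3 in EBP, 1 in SREBF2 and 4 in MSMO1. The windows not shown held 0 for AACS, 0 for FADS1, and 0 and 1 for the 2 windows of FADS2. The letters TCACCCCAC of SREBF2, starting at position -133, were the only match to TCACNCCAC among the 41 windows of the 29 genes with an entry (ACAT2, FASN, FDFT1 and SQLE had none), or 2.44% of them, against 1.13% of all 35116 windows. On either strand, CCAAT was present in 61.0% of the 41 windows and in 34.6% of all windows, the GC box GGGCGG, bound by SP1, in 87.8% and 45%, and the E-box CACGTG in 12.2% and 7.26%, the last in INSIG1, LSS, SC5D and SCAP. No matches of different motifs overlapped, windows of 1 gene share sequence, and a match describes letters rather than a bound site.

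The third question was how the derivatives differed before depletion, in shCtrl cells. In BrM3 15 of the 33 genes were lower than in LM2 (45.5%, against 23.4% of all tested genes) and 0 were higher by edgeR, where 24.2% of all tested genes were. At an unadjusted p under 0.05 there were 19 in either direction. DESeq2 called 16 lower and 0 higher, and among all tested genes 6131, 50.5% of them higher. Without LM2 shCtrl replicate 3 there were 12 lower and 4 higher (PMVK, FDPS, SQLE and LPIN1), with the median of the 33 at -0.33. In that fit 21.5% of all tested genes were lower and 22.7% higher. With replicate number as a block shared by all lines, 2 were higher (PMVK and SQLE, against 27.4% of all tested genes). With GC content removed 2 were higher as well (PMVK and FDPS, against 27.3%). In BoM 16 were higher than in BrM3 (48.5%, against 17.8%) and PMVK and FDPS were lower (6.06%, against 19.7%). Between BoM and LM2 the calls were divided, with 3 higher (9.09%, against 26%) and 7 lower (21.2%, against 25.8%). The median log2 fold change of the 33 was -0.49 for BrM3 against LM2, 0.39 for BoM against BrM3 and -0.13 for BoM against LM2 and those of all tested genes were 0.01, 0.00 and -0.01. Ranges of the 3 libraries did not overlap, with BrM3 lower than LM2, for 16 of the 33 genes (28.7% of all tested genes) and higher for 2 (30.2%). For BoM against BrM3 there were 18 higher (27.1%) and 4 lower (27.2%), and for BoM against LM2 5 higher (29.3%) and 6 lower (26.9%). The comparisons share control libraries and are not independent, and line cannot be told apart from any difference in culture that went with it. WDR5 itself was lower in BrM3 and BoM than in LM2 shCtrl cells (log2 fold change -0.54 and -0.48, adjusted p = 0.00285 and 0.00545), and its part in these differences was not tested.

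**Figure D3:**
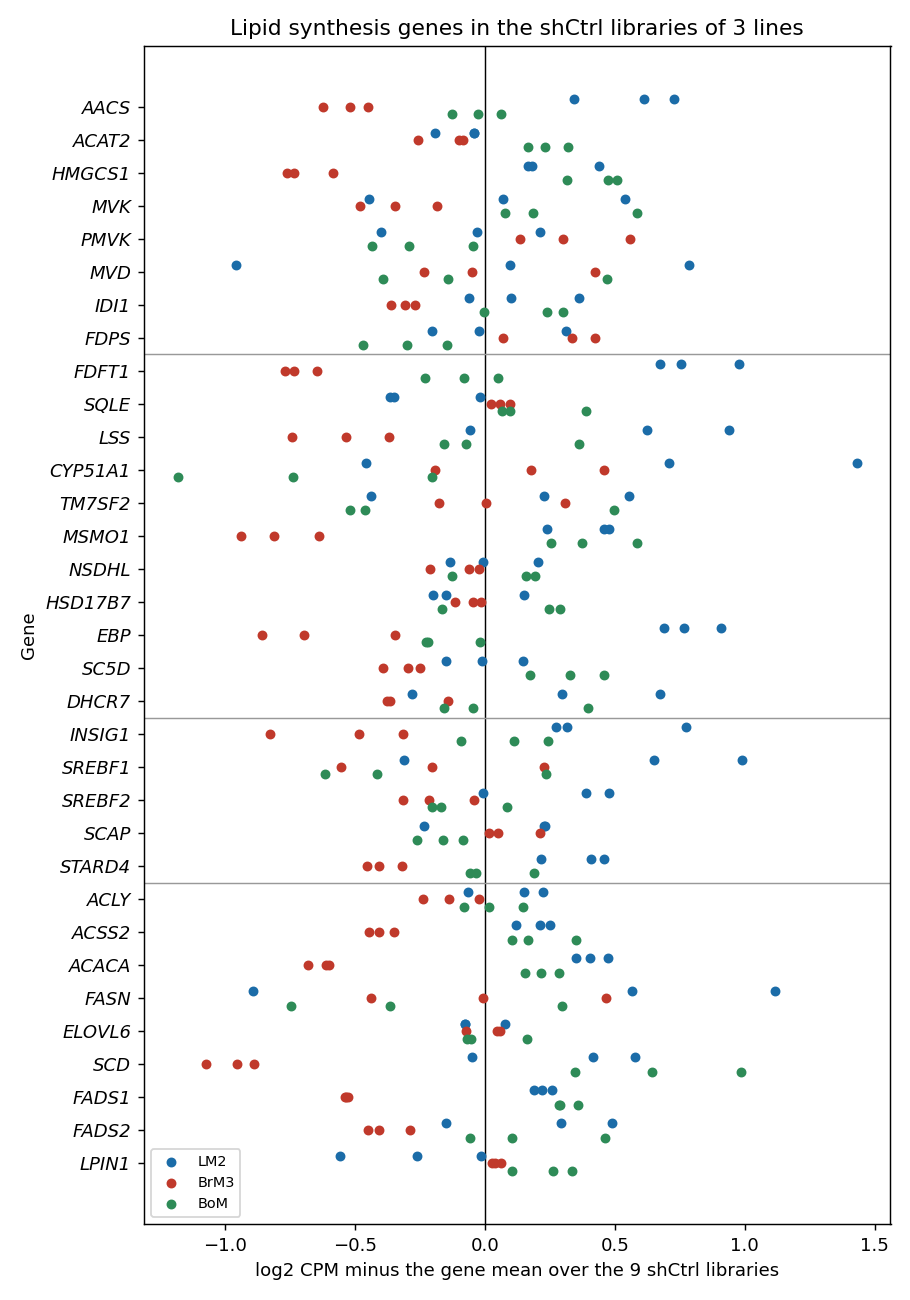
For each of the 33 genes, log2 CPM in the 9 shCtrl libraries is plotted relative to the gene's mean over them, coloured by line, with genes grouped by role. BrM3 points lie to the left of both other lines for genes such as FADS1, ACACA, MSMO1 and SCD, and to the right of BoM for PMVK and FDPS.

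All 4 roles contributed to the lower level in BrM3 than in LM2: 3 of 8 mevalonate genes, 4 of 11 sterol genes, 3 of 5 control genes and 5 of 9 fatty acid genes. FDFT1, the squalene synthase that commits the pathway to sterol, had the smallest adjusted p (log2 fold change -1.52, standard error 0.13, adjusted p = 5.44e-08). Its shCtrl values were 159.5, 151 and 186 CPM in LM2, 55.6, 60.5 and 56.9 CPM in BrM3 and 80.7, 97.9 and 89.5 CPM in BoM, so that the 3 lines did not overlap. ACACA (ENSG00000278540, chromosome 17, 37084992 to 37406836), which makes the malonyl-CoA for fatty acid synthesis, was lower by 1.04 on the log2 scale in BrM3 (94.4, 93.5 and 89.3 CPM) than in LM2 (182.5, 199 and 189.5 CPM), with an adjusted p of 1.38e-07, and BoM lay between at 174, 159 and 166 CPM. FADS1 was lower in BrM3 than in LM2 (log2 fold change -0.75, standard error 0.07, adjusted p = 1.75e-07), its 3 BrM3 libraries lying between 194 and 196 CPM. EBP, at 31.7, 36.99 and 33.5 CPM in LM2 and 12.2, 15.5 and 10.9 CPM in BrM3, was lower as well (log2 fold change -1.41, standard error 0.14, adjusted p = 3.62e-07). AACS, at 39.4, 51.5 and 47.5 CPM against 21.7, 22.7 and 20.2 CPM, followed (log2 fold change -1.10, standard error 0.12, adjusted p = 5.85e-07). SCD was lower in BrM3 by 1.31 on the log2 scale, HMGCS1 by 0.96, LSS by 1.10, INSIG1 by 1.00 and SREBF2 by 0.49. FASN (-0.43 (adjusted p = 0.419)) and SREBF1 (-0.69 (adjusted p = 0.123)) did not pass the test. HSD17B7, which fell in BrM3 after knockdown, had an estimate of -0.01 (95% confidence interval -0.35 to 0.34, adjusted p = 0.979) between the shCtrl cells of BrM3 and LM2. Of the 15 calls, 12 held with any 1 library left out, the exceptions being IDI1, SREBF2 and FADS2, which were lost without LM2 shCtrl replicate 3 (IDI1 also without any BrM3 shCtrl library).

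In BoM against BrM3, FADS1 had the smallest adjusted p (log2 fold change 0.84, standard error 0.07, adjusted p = 1.09e-07). MSMO1 (ENSG00000052802, chromosome 4, 165327667 to 165343164), the sterol methyl oxidase, stood at 22.2, 20.3 and 25.03 CPM in BrM3 shCtrl cells, 46.5, 50.4 and 58.3 CPM in BoM and 53.5, 45.9 and 54.2 CPM in LM2. It was higher in BoM than in BrM3 (log2 fold change 1.20, standard error 0.14, adjusted p = 3.78e-06), and its estimate for BoM against LM2 was 0.01 (95% confidence interval -0.27 to 0.30, adjusted p = 0.941). ACACA (log2 fold change 0.85, standard error 0.10, adjusted p = 3.38e-06) and HMGCS1 (log2 fold change 1.12, standard error 0.16, adjusted p = 4.18e-05) were higher in BoM too. SCD had the widest difference, higher in BoM than in BrM3 (log2 fold change 1.65, standard error 0.24, adjusted p = 4.18e-05). The 2 genes lower in BoM, PMVK (-0.59 (adjusted p = 0.0147)) and FDPS (-0.58 (adjusted p = 0.00325)), act in succession with MVD and IDI1 between mevalonate and squalene. Of the 18 calls, 11 held with any 1 library left out.

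BoM and LM2 shCtrl cells differed at fewer of the 33 genes. FDFT1 (log2 fold change -0.89, standard error 0.13, adjusted p = 2.34e-05), EBP (log2 fold change -0.94, standard error 0.14, adjusted p = 3.05e-05) and AACS (log2 fold change -0.60, standard error 0.12, adjusted p = 3.41e-04) were lower in BoM, as were SREBF2, STARD4, FDPS and CYP51A1. CYP51A1 passed the filter on low counts only through LM2 libraries, where it reached 3.92 CPM, against at most 0.987 CPM in BoM and 1.56 CPM in BrM3. Its call is therefore no support for a difference. ACAT2, at 142, 149 and 158 CPM in BoM and 123, 111 and 123 CPM in LM2, was higher in BoM (log2 fold change 0.33, standard error 0.09, adjusted p = 0.00516), as were LPIN1, a phosphatidate phosphatase, at 91.7, 108 and 102 CPM against 58.01, 71.2 and 84.4 CPM (log2 fold change 0.50, standard error 0.16, adjusted p = 0.0131), and SQLE (0.42 (adjusted p = 0.0144)). Of the 10 calls, 4 held with any 1 library left out (AACS, ACAT2, FDFT1 and EBP), while those of SQLE, LPIN1, SREBF2, STARD4, FDPS and CYP51A1 were each lost in at least 1 such fit. The median of the 33 turned to 0.02 without LM2 shCtrl replicate 3, and the count dropped to 6 without BoM shCtrl replicate 1, BoM shCtrl replicate 3 or LM2 shCtrl replicate 3.

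Within groups, the 33 genes moved together between replicates, most of all in LM2. In LM2 shCtrl replicate 1, 5 of the 33 genes lay above their group mean on the log2 scale, with a median deviation of -0.17, and in replicate 3 there were 29, with a median of 0.22. In LM2 shWDR5 cells, 3 of the 33 lay above the mean in replicate 1 (median -0.20), 4 in replicate 2 (median -0.07) and 30 in replicate 3 (median 0.28). Over all tested genes the share above the mean was 57.3% and 48.3% in those shCtrl libraries and 53.6%, 47.8% and 47.8% in the shWDR5 libraries, with medians from -0.01 to 0.04. Smaller shifts were present in BoM shCtrl replicate 2 and BrM3 shCtrl replicate 2, with 25 of 33 genes above in each, and in BrM3 shWDR5 replicate 1, with 8 above.

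**Figure D4:**
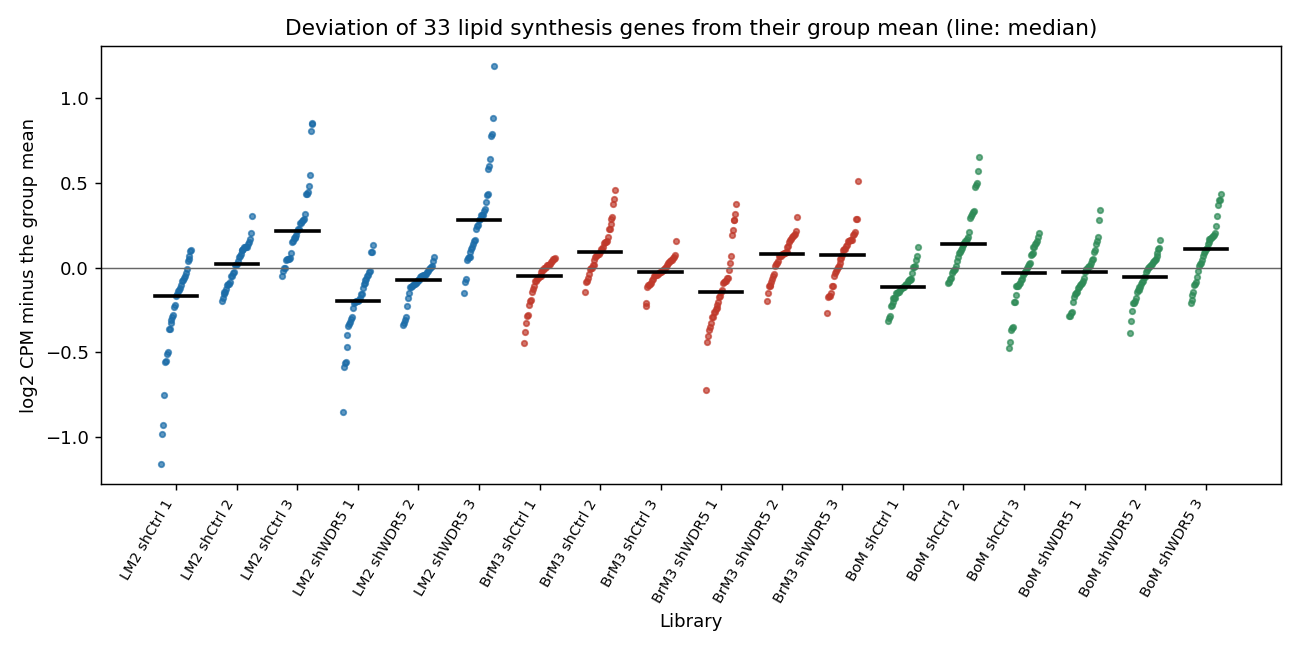
Each point is 1 of the 33 genes in 1 library, plotted as log2 CPM minus the mean of its group, with a line at the median of each library. The medians of LM2 shCtrl replicate 1 and LM2 shWDR5 replicate 3 lie at -0.17 and 0.28, the latter the farthest from 0 of the 18 libraries.

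The relation of level to GC content also differed between libraries, in part alongside these shifts. The slope of log2 CPM against the GC percentage of all tested genes was -0.0136 per percentage point in LM2 shCtrl replicate 1 and 0.0243 in replicate 3, and 0.0237 in LM2 shWDR5 replicate 3, within -0.0269 to 0.0243 over the 18 libraries. Other libraries did not follow this order. The slope was 0.00143 in LM2 shWDR5 replicate 1, where 3 of the 33 genes lay above the mean, -0.0173 in BoM shWDR5 replicate 3, where the median deviation was 0.11, and -0.0269 in BoM shWDR5 replicate 1, where it was -0.03. The 33 genes have a GC content of 34.4% to 65.3%, with a median of 49.6% against 47.2% for all tested genes. With that relation removed from each library, SCD, HSD17B7, EBP, FADS1 and FADS2 still fell on average (-0.62, -0.61, -0.32, -0.12 and -0.25), while AACS and SREBF2 did not pass the test. HMGCS1 and SC5D then fell as well (-0.27 and -0.22), and LSS, ACLY and ACACA rose (0.27, 0.18 and 0.17), giving 7 lower and 3 higher on average, where 20.2% of all tested genes fell and 31.4% rose. In BrM3 there were 2 lower and 2 higher (LSS and ACLY), where 10.8% of all tested genes fell and 14% rose. In BoM there were 7 lower and 0 higher, where 12.7% fell and 16% rose. For LM2 the count stayed at 0, where 8.15% of all tested genes fell and 8.33% rose. For the shCtrl comparisons it was 22 in BrM3 against LM2 (20 lower), 11 in BoM against LM2 (8 lower) and 21 in BoM against BrM3 (2 lower). Of all tested genes 31.9%, 31.4% and 22.2% were lower there and 27.3%, 30.5% and 25.1% higher. The median log2 fold change of the 33 after knockdown, averaged over the lines, was -0.10 with GC content removed and -0.16 without that step. When all 6 LM2 libraries were left out, an alternative chosen after seeing the data, the counts were 2 in BrM3, 7 in BoM, 11 for the average of these lines and 19 for BoM against BrM3 shCtrl cells. Of the 12287 tested genes 1169, 1789, 3384 and 4602 were called in these comparisons. Without LM2 shWDR5 replicate 3 alone, 11 genes passed the averaged test, as did 4510 of the 12287 tested genes.

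Genes next to these pathways, from lists that hold no member of the 33, moved in both directions on average after knockdown, where 19.9% of all tested genes fell and 15.7% rose. Of 17 tested genes of sterol transport and control, 6 fell (35.3%) and 3 rose (17.6%). LIPA, the lysosomal lipase that frees cholesterol from esters (-0.31 (adjusted p = 3.86e-04)), SCARB1, a lipoprotein receptor (-0.42 (adjusted p = 0.00108)), MBTPS2, a protease that cleaves SREBPs (-0.33 (adjusted p = 0.00244)), and ABCA1, a cholesterol exporter (-0.57 (adjusted p = 0.00263)), fell, while NPC1, which moves cholesterol out of lysosomes, rose (0.26 (adjusted p = 0.00114)). Of 12 genes of the isoprenoid branch, 1 fell (8.33%) and 4 rose (33.3%). RABGGTB, a subunit of the enzyme that prenylates Rab proteins, rose by 0.73 (adjusted p = 1.01e-05), with PDSS1, LBR and FNTA also higher by 0.25, 0.18 and 0.19 and PDSS2 lower (-0.23 (adjusted p = 0.00652)). Of 26 further tested fatty acid and glycerolipid genes, 7 fell (26.9%) and 3 rose (11.5%). LPIN3, a phosphatidate phosphatase, fell in LM2 (-1.32 (adjusted p = 1.44e-04)), BrM3 (-0.80 (adjusted p = 0.00351)) and BoM (-1.37 (adjusted p = 3.01e-05)), and ACACB (-0.52 (adjusted p = 3.36e-05)), ELOVL7 (-0.61 (adjusted p = 3.66e-05)), SCD5 (-0.25 (adjusted p = 0.00291)) and GPAM (-0.36 (adjusted p = 0.00326)) fell on average. The median log2 fold change was 0.02, 0.06 and -0.01 for the 3 lists, against -0.16 for the 33 genes and 0.00 for all tested genes.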

How the data were processed

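mRNA libraries were made with a stranded kit and sequenced in paired reads. The authors aligned reads to hg38 with STAR 2.7.0 and deposited raw gene counts, which were used as deposited. The strand setting was not given in the sources used here. Columns of shCtrl cells carry an abbreviation and were assigned by elimination. A second deposited table of the authors' DESeq2 log2 fold changes and adjusted p-values was not used. The members and the gene lists were chosen with earlier results of these data known.

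Genes were kept where the highest normalized count exceeded 130, the threshold that maximised the Jaccard index between replicates (0.97). The 12287 genes were fitted in edgeR 4.0.16 (quasi-likelihood, TMM, 6 groups in 1 fit, 12 residual degrees of freedom, R 4.3.3), with a standard error from the F statistic and 95% intervals. P-values were adjusted over all tested genes and called under 0.05. The step was tested on simulated data. Genes with values in every library were those called in the averaged knockdown, together with HMGCS1, SQLE, INSIG1, SREBF1, SREBF2, SCAP, FASN and SCD. In the other comparisons the 5 genes with the smallest adjusted p were described, and in the neighbouring lists up to 5 per list. Further genes named there were chosen after their values were seen. Replicate numbers were taken to pair libraries where all 3 correlations of same-numbered deviations were over 0.1, an arbitrary limit. This held in BoM (0.160 to 0.553), while 2 of 3 passed in LM2 and in BrM3. The replicate block is given beside the unblocked fit for BoM and for the average. It was set within each line for knockdowns (6 residual degrees of freedom) and shared by all lines for shCtrl comparisons (10). Alternatives were DESeq2 1.42.0, other filters, a replicate block, lines fitted alone, thinning, removal of GC content by loess (span 0.5) and leaving out libraries. Coordinates and exon lengths came from GENCODE release 44.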

Additional observations from a re-analysis of the deposited data

How the results depend on the processing

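Counts of the 33 genes past the threshold stayed within 1.5 times the reported count in 239 of 261 alternative fits. These include the differences in response, which stayed at 0, and fits without a library outside the comparison. For the knockdown in BrM3, 8 of 27 moved, including every fit without 1 BrM3 library. Of 1534 results for genes called in the main fit, 0 changed direction and 118 lost their call. Genes not called there could turn. With GC content removed and the replicate block, shCtrl BoM against BrM3 went from -0.07 to 0.33 for SREBF1 (adjusted p = 0.0462) and -0.04 to 0.39 for MVD (0.0419). The rule that every same-number correlation be over 0.1 was met in BoM but not in LM2 or BrM3. That limit was arbitrary, and 2 of 3 pairs passed it in LM2 and in BrM3, so pairing there is not excluded. The correlation of deviations was 0.567, 0.0421 and 0.725 in LM2, -0.168 to 0.531 in BrM3 and 0.160 to 0.553 in BoM. By line, 4, 3 and 5 of 6 libraries correlated best with their own number. With that number as a replicate block within each line, the knockdown counts were 0 in LM2 and 3 in BrM3 (2 lower, 1 higher). They were 12 in BoM (all lower) and 14 averaged over the 3 lines (13 lower, 1 higher), and 0 for each difference in response. Of all tested genes 8.05%, 12.6%, 15.1% and 24.7% fell in these knockdowns and 3.87%, 6.41%, 11.4% and 22.3% rose. The shCtrl comparisons used a block shared by the 3 lines, and whether replicate numbers match between lines was not tested. Their counts were 19 for BrM3 against LM2 (17 lower), 12 for BoM against LM2 (9 lower) and 19 for BoM against BrM3 (2 lower). Of all tested genes 26%, 28.5% and 23.5% were lower there and 27.4%, 28.2% and 20.4% higher. GC content removed together with the replicate block gave 2 in LM2 (1 lower, 1 higher), 10 in BrM3 (3 lower, 7 higher), 14 in BoM (13 lower, 1 higher) and 18 averaged (13 lower, 5 higher). Of all tested genes 12.2%, 14.6%, 16% and 23.4% fell in these comparisons and 16.3%, 23%, 23.9% and 37.2% rose. Most calls in BrM3 were then higher, as were 61.2% of those among all tested genes. GC content removed alone gave 4 in BrM3 (2 lower, 2 higher) and 10 averaged (7 lower, 3 higher). Of all tested genes 10.8% fell and 14% rose in BrM3 in that fit, and 20.2% fell and 31.4% rose on average. With no filter on low counts, 11 genes passed the averaged test, as did 5676 of all 41236 genes then tested. BoM fitted alone gave 3, and 938 among all 12287 tested genes. With all 6 LM2 libraries left out, an alternative chosen after seeing the data, 11 passed the average of the other lines, as did 3384 of the 12287 tested genes. The causes of these changes were not tested.

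Leaving out 1 library gave 0 to 0 genes in LM2, 1 to 2 in BrM3, 2 to 7 in BoM and 5 to 11 averaged, 0 to 0 for each difference in response, 14 to 19 for shCtrl BrM3 against LM2, 6 to 12 for BoM against LM2 and 13 to 19 for BoM against BrM3. Among all tested genes, the higher share of calls was 23.6% in LM2, 26.8% in BrM3, 33.4% in BoM and 44.1% averaged. With GC content removed it was 50.5%, 56.5%, 55.7% and 60.9%. With DESeq2 it was 35.8% in LM2 and 43.5% in BoM, and with BrM3 fitted alone 37.2%, against 21.7% with BoM fitted alone. Depth was lowest at 17485841 counts, and thinning all libraries to that total gave 0, 2, 7 and 6 genes for the knockdowns in LM2, BrM3, BoM and averaged. Among all 12287 tested genes it gave 534, 1121, 1658 and 4070.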
